A study of Drosophila melanogaster with 30 samples.

Results

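Drosophila melanogaster genes that encode ETS transcription factors were followed by symbol through an RNA-seq study of added Y chromosomes. The 7 genes Ets96B, Ets98B, Ets97D, Ets65A, Ets21C, pnt and aop were taken, out of 16868 genes counted in each library. Ets96B was chosen by a measured value, its high RNA level in male bodies with an added Ycongo, so its values there are a description and carry no test. The other 6 were taken as members of the same family.

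ETS proteins bind DNA through a shared ETS domain, and several of them act at the end of receptor tyrosine kinase signalling. In that pathway Ras and a MAP kinase cascade activate rl, the fly ERK. ERK phosphorylates the activator pnt and the repressor aop, also named Yan, and phosphorylated aop leaves the nucleus, so that the pair works as a switch in the eye, the trachea and the follicle cells. Ets21C is known as a target of stress and JNK signalling, Ets97D as the fly relative of mammalian GABPA with a role in oogenesis, Ets65A for its expression in the nervous system, and Ets96B as the fly relative of mammalian ETV5.

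Poly(A) RNA was sequenced in 30 libraries, 2 for each of 15 groups that combine a tissue, a sex and a genotype. Females had an added Ycongo (XXYcongo), an added Yohio (XXYohio) or no Y (XX), and gave whole bodies, ovaries and the larval central nervous system (CNS). Males had a further Ycongo (XYYcongo), a further Yohio (XYYohio) or no further Y (XY), and gave whole bodies and testes. Flies were 2 days old, and the CNS came from third-instar larvae. The labels write every genotype with a caret, such as X^X, X^Y, X^XYohio and X^YYcongo, and do not explain it. The plain names used here stand for those labels. Replicates are labelled as biological, with no word on whether each came from its own flies. A p-value here rests on the spread between libraries of a group, pooled over the groups of a fit. That spread may be technical. All strains shared food, temperature and light cycle, and the labels name no driver, transgene or other allele.

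Total counts per library lay between 6026258 and 15363636. Levels are given as CPM, counts relative to library size, on 1 TMM scale over all 30 libraries, where TMM sets libraries to a common size by the genes they share. RNA of the mitochondrial genome took 1.78 to 40.11% of the counts, with the highest share in replicate 2 of the XYYcongo male bodies, against 10.14% in replicate 1 and 9.37 to 15.71% in the other male bodies. The Y gene FDY had 70 to 114 counts per library in female bodies with an added Y, against 3 and 5 in XX bodies. The XX CNS libraries held 109 and 74 FDY counts, and XYYcongo male bodies (10.7 and 5.18 CPM) overlapped with XY (8.44 and 2.85 CPM), so FDY does not check the labels in those groups. FDY was copied from the autosomal gene vig2, and reads of the 2 may be mixed. Summed markers of spermatocytes and spermatids reached 3170 to 5810 CPM in testes, and those of neuroblasts 398 to 579 CPM in the CNS. Markers of the female germline reached 2940 to 5990 CPM in ovaries, and fat body markers ran from 135 to 4210 CPM among the CNS libraries. Testis libraries also held 28300 to 47500 CPM of accessory gland markers, against 4620 to 10200 CPM in whole male bodies, so a testis value below may include RNA of that gland. In whole bodies and other mixed tissue, fewer cells of a type and less RNA per cell cannot be told apart.

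Ets96B lies on chromosome arm 3R from 24788054 to 24797955 on the forward strand in the Ensembl BDGP6.54 annotation, whose positions are used throughout because the authors' build is not given in the sources used here. In male bodies it had 138 and 163 CPM with XYYcongo and 21.2 and 24.2 CPM with XYYohio, against 21.6 and 31.1 CPM with XY. The counts behind these were 759 and 946, then 110 and 141, and 110 and 207. Both XYYcongo libraries stood far above the other 4, which overlapped among themselves. The mean was 151 ± 18 CPM in XYYcongo, against 26.3 ± 6.71 CPM in XY (SD, n = 2 each), a 5.72-fold difference that in the fit was a log2 fold change of 2.54 with an SE of 0.38. Of 12889 genes fitted in male bodies, 27 had a larger log2 fold change in this contrast (0.209%), which describes how far out the chosen gene lay. With no TMM scaling, the levels were 92.5 and 74.2 CPM in XYYcongo, against 18.3 and 22.3 CPM in XY. Without XYYcongo replicate 2 the log2 fold change was 2.42. The authors' deposited table gives a log2 fold change of 1.89 for this contrast.

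The other tissues showed no such level of Ets96B. In testes it had 41.9 and 49.3 CPM with XYYcongo and 36.6 and 38.3 CPM with XYYohio, against 33.3 and 71.4 CPM with XY, and the ranges of XYYcongo and of XYYohio both lay inside that of XY. In female bodies it had 17.2 and 30.8 CPM with XXYcongo and 38.6 and 15.1 CPM with XXYohio, against 35.2 and 31.8 CPM with XX. The libraries of XXYohio spanned those of the other female groups. In ovaries it had 0.85 and 5.62 CPM with XXYcongo and 0.336 and 2.79 CPM with XXYohio, against 2.19 and 2.54 CPM with XX. In the CNS it had 1.56 and 1.0 CPM with XXYcongo and 0.736 and 1.32 CPM with XXYohio, against 3.41 and 1.2 CPM with XX. The gene was thus low in ovaries and CNS whatever the genotype, and present in bodies and testes. None of the 9 other contrasts with a control passed edgeR's test for Ets96B, and its log2 fold changes ran from -1.13 ± 0.72 (SE) in XXYohio CNS to 0.42 ± 0.91 in XXYcongo ovaries (adjusted p = 0.853 and 0.901). Among these contrasts, XYYohio against XY male bodies reused the XY libraries that helped choose Ets96B. Across the 15 groups its mean level ran from 1.03 CPM in XXYohio CNS to 151 CPM in XYYcongo male bodies, and 10 of the 14 pairs of neighbours in that order overlapped in their libraries. The next highest means were 52.4 CPM in XY testes and 45.6 CPM in XYYcongo testes, and the XYYcongo male bodies did not overlap with XY testes.

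**Figure D1:**
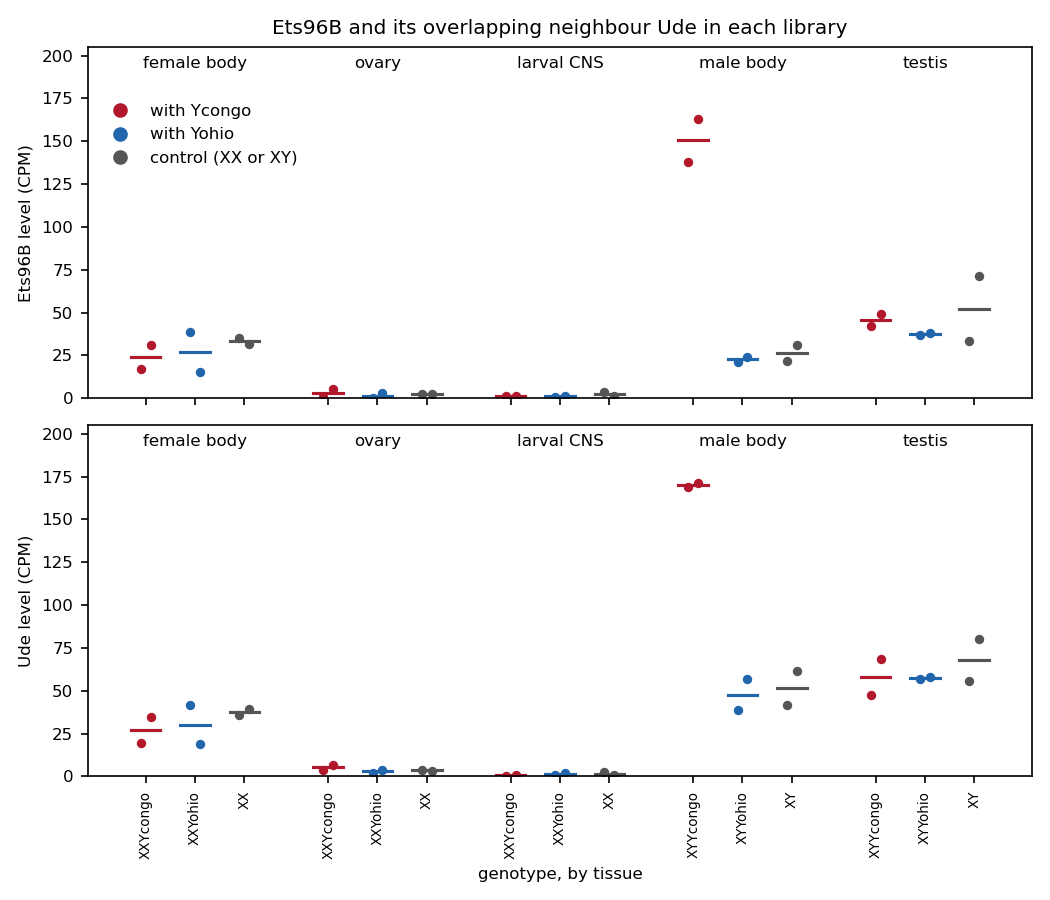
Level in CPM of Ets96B (upper panel) and of Ude (lower panel), on a linear axis, in each of the 30 libraries (points) with the mean of 2 (bars), by tissue and genotype. For both genes the XYYcongo male bodies stand above all other libraries, at 138 and 163 CPM for Ets96B and 169 and 171 CPM for Ude.

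The gene whose level was most like that of Ets96B over the 15 groups was Ude, which encodes a factor that degrades uracil-containing DNA. Its Pearson correlation with Ets96B was 0.973, the highest among 14384 genes, over group means of log2 CPM, where groups share tissue and library. The XYYcongo male bodies, whose level chose Ets96B, are among the 15 groups, so the ranking favours genes that are also high there. Ude lies tail to tail with Ets96B on the opposite strand, and the exons of the 2 genes share 496 bases, while CG13634 shares a further 16. The overlaps take up 15.94% of the Ets96B exon length of 3.21 kb. Whether the authors' counting used strand is not given in the sources used here. Reads in the shared bases cannot be assigned to Ets96B or to Ude without it, so the 2 genes cannot be told apart there. In male bodies Ude had 169 and 171 CPM with XYYcongo and 38.7 and 56.6 CPM with XYYohio, against 41.6 and 61.5 CPM with XY. Its log2 fold change for XYYcongo was 1.74 with an SE of 0.39, smaller than that of Ets96B. The 2 genes did not keep 1 ratio: there were 1.22 and 1.05 Ude counts per Ets96B count in XYYcongo male bodies and 1.83 and 2.34 in XYYohio, against 1.93 and 1.98 in XY. Over the 6 libraries of a tissue the median ratio was 1.125 in female bodies, 1.455 in testes, 1.5 in ovaries and 0.821 in the CNS.

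The genes around this pair lay closer to 0. Among the 9 other fitted genes that lie nearest, on both sides, the log2 fold change of XYYcongo against XY in male bodies ran from -1.09 in CG34150 to 0.56 in CG13631. Of these, 1 gene, CG5805, was higher without overlap between the groups, 5 were lower without overlap and 3 overlapped, where 16.0% of all fitted genes were higher and 20.5% lower without overlap. CG5805, the nearest gene upstream, had 52.3 and 60.1 CPM with XYYcongo, against 50.6 and 36.2 CPM with XY. The gene beyond Ude, polybromo, a chromatin remodelling subunit, had 32.5 and 20.2 CPM with XYYcongo, against 38.7 and 35.9 CPM with XY.

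**Figure D2:**
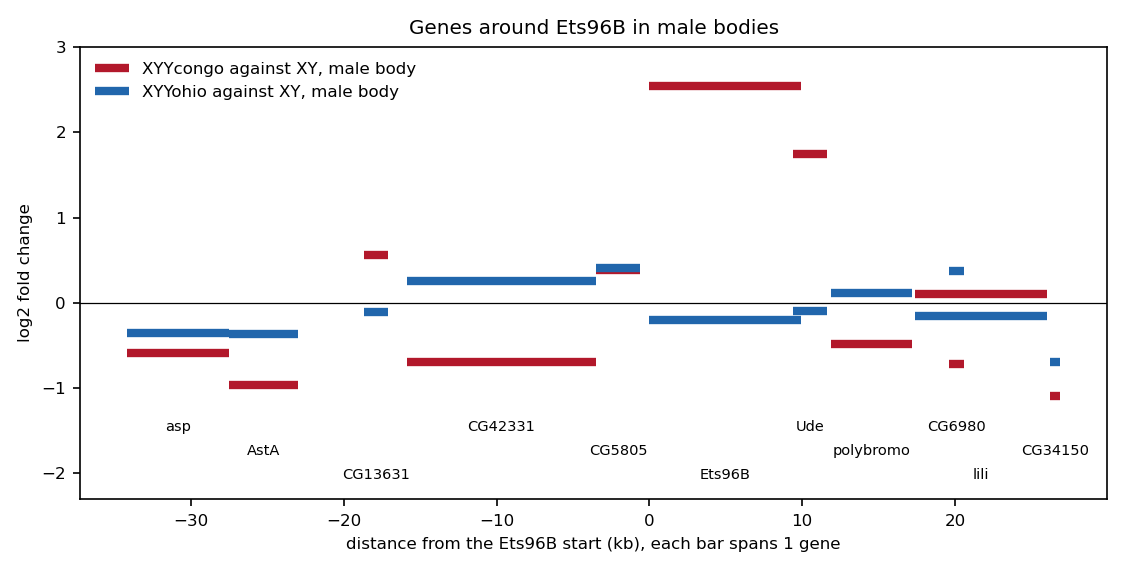
Fitted log2 fold change of XYYcongo against XY and of XYYohio against XY in male bodies for Ets96B, Ude and the 9 nearest other fitted genes, drawn over each gene's span in kb from the Ets96B start. Ets96B at 2.54 and Ude at 1.74 stand apart from the other genes, which lie between -1.09 and 0.56 in XYYcongo.

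The next genes most like Ets96B were PGRP-SC1b, an enzyme of the peptidoglycan recognition family (r = 0.972), CG9826 (0.971), CG16898 (0.97) and Msr-110 (0.967). This ranking too includes the group that chose Ets96B. CG16898 had 237 and 272 CPM in XYYcongo male bodies and 75.2 and 197 CPM in XYYohio, against 50 and 187 CPM in XY. Msr-110 had 5270 and 2400 CPM in XYYcongo and 1360 and 1920 CPM in XYYohio, against 1050 and 2140 CPM in XY. Both genes were higher in both XYYcongo libraries, and their XY replicates lay far apart. PGRP-SC1b and CG9826 had at most 18 counts in any male body library.

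Some cell type marker sums were higher in XYYcongo male bodies than in XY without overlap. Of all fitted genes, 16.0% were higher without overlap in this contrast. The TMM factors were 0.671 and 0.454 in XYYcongo male bodies, against 0.846 and 0.719 in XY, which raises levels in XYYcongo relative to XY. Marker sums without TMM scaling were not made. Summed ejaculatory bulb markers (3 genes) were 17100 to 27600 CPM in XYYcongo and 9030 to 9750 CPM in XYYohio, against 5240 to 11200 CPM in XY. Against XY 1 of the 3 genes was higher without overlap, and against XYYohio 1 was higher and 1 lower. Summed tracheal markers (2 genes) were 129 to 153 CPM in XYYcongo and 66.7 to 154 CPM in XYYohio, against 57.5 to 67.7 CPM in XY. Both genes were higher without overlap with XY, and 1 with XYYohio. Summed neuron markers (5 genes) were 1300 to 1530 CPM in XYYcongo and 786 to 972 CPM in XYYohio, against 655 to 1270 CPM in XY. Of these, 1 gene was higher without overlap with XY, and 3 with XYYohio. The sums of the other 12 of 15 marker lists overlapped between XYYcongo and XY, among them accessory gland markers (5 genes), at 7130 to 10200 CPM in XYYcongo, against 4620 to 8400 CPM in XY. The part of these cell types in the Ets96B difference was not tested. Ejaculatory bulb markers also summed to 4250 CPM in replicate 2 of the XYYcongo testes, against 22.0 to 33.8 CPM in the other 5 testis libraries. That sum lay below the 17100 to 27600 CPM of the XYYcongo male bodies. Ets96B was at 49.3 CPM in replicate 2 of the XYYcongo testes and at 41.9 CPM in replicate 1. Any link between these markers and Ets96B in testes was not tested.

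In the same male bodies the other family members spread in both directions. These values too come from the contrast that chose Ets96B and carry no test. The repressor aop had 173 and 233 CPM with XYYcongo and 88.5 and 129 CPM with XYYohio, against 81.8 and 137 CPM with XY. Its XYYcongo libraries lay above the other 4, with a log2 fold change against XY of 0.91 ± 0.42 (SE). The activator pnt had 48.7 and 113 CPM with XYYcongo and 35.7 and 34.5 CPM with XYYohio, against 51.8 and 46.8 CPM with XY, and its 2 XYYcongo libraries lay far apart. Ets65A had 9.27 and 9.15 CPM with XYYcongo and 6.17 and 4.63 CPM with XYYohio, against 5.69 and 4.95 CPM with XY. Ets97D had 2.36 and 2.76 CPM with XYYcongo and 10.0 and 5.31 CPM with XYYohio, against 10.8 and 4.95 CPM with XY, so it was lower in both XYYcongo libraries than in the other 4, with a log2 fold change against XY of -1.58 ± 0.61 (SE). Ets98B, known from the pole cells of the embryo, had 53.8 and 102 CPM with XYYcongo and 66.1 and 70.3 CPM with XYYohio, against 56.3 and 71.4 CPM with XY. Ets21C had 22.9 and 31.8 CPM with XYYcongo and 49.2 and 27.6 CPM with XYYohio, against 61.8 and 21.0 CPM with XY. In XYYcongo against XY, 3 members were higher without overlap and 1 was lower, where 16.0% of all fitted genes were higher and 20.5% lower in this sense. Since the rule used this contrast, nothing is read from those counts. With no TMM scaling, Ets65A had 6.22 and 4.16 CPM with XYYcongo, against 4.81 and 3.56 CPM with XY, and so overlapped. Ets98B was then lower without overlap, at 36.1 and 46.3 CPM, against 47.6 and 51.4 CPM. Without that scaling aop stayed higher and Ets97D lower without overlap.

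Outside that contrast, no ETS gene passed the test with an added Y. In the 9 other contrasts of an added Y with its control, 55 tests of members were made with edgeR's quasi-likelihood test, 0 passed an adjusted p of 0.05, and 3 had an unadjusted p under 0.05; DESeq2 called 0 as well. Over all genes 0.0% were called in female bodies with either Y, in XYYohio male bodies and in testes with either Y, 0.0101% in XXYcongo CNS, 0.0403% in XXYohio CNS, 0.283% in XXYcongo ovaries and 0.0113% in XXYohio ovaries, so 0 calls among so few genes is near the background. The low-count filter kept 7 members in bodies and CNS, 6 in testes, where Ets65A was left out, and 4 in ovaries, where Ets98B, Ets65A and Ets21C were left out. The filter looks at the 6 libraries of a tissue, and members at or near 0 in a tissue have no test there.

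The 3 members with an unadjusted p under 0.05 are named here after their values were seen. Ets21C had 4.46 and 3.67 CPM in XXYcongo female bodies and 5.59 and 5.26 CPM in XXYohio, against 9.31 and 11.4 CPM in XX. Each added Y group lay below XX, with a log2 fold change of -1.33 ± 0.46 (SE) for XXYcongo and -0.84 ± 0.45 for XXYohio and adjusted p-values of 0.906 and 0.557 by edgeR. Both contrasts share the XX libraries. The overlapping gene nAChRbeta3 had 4.02 and 3.18 CPM in XXYcongo female bodies and 4.39 and 4.48 CPM in XXYohio, against 7.17 and 10.2 CPM in XX. Of 15 marker lists 5 had lower sums in both added Y groups without overlap (muscle, photoreceptors, hemocytes, glia and neuroblasts). The sums of 1 list, the female germline, were higher in both. The share of all genes that were lower or higher in this sense was not counted. Neuroblast sums were low: 3.24 and 4.07 CPM in XX, 2.19 and 2.2 in XXYcongo, 1.86 and 1.85 in XXYohio. Muscle markers were at 1910 and 1490 CPM in XXYcongo and 773 and 1400 CPM in XXYohio, against 2890 and 4520 CPM in XX. Photoreceptor markers were at 519 and 493 CPM in XXYcongo and 372 and 386 CPM in XXYohio, against 974 and 969 CPM in XX. Female germline markers were at 3970 and 4490 CPM in XXYcongo and 5230 and 3020 CPM in XXYohio, against 2820 and 1730 CPM in XX. Their part in the Ets21C values was not tested. Ets97D had 15.3 and 14.6 CPM in XXYohio CNS and 10.7 and 12.5 CPM in XXYcongo CNS, against 7.18 and 11.1 CPM in XX CNS. XXYohio was higher without overlap, with a log2 fold change of 0.73 ± 0.27 (SE) and an adjusted p of 0.823 by edgeR. In ovaries aop had 97.1 and 202 CPM with XXYohio, against 275 and 244 CPM with XX, a log2 fold change of -0.79 ± 0.34 (SE) with an adjusted p of 0.704 by edgeR.

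**Figure D3:**
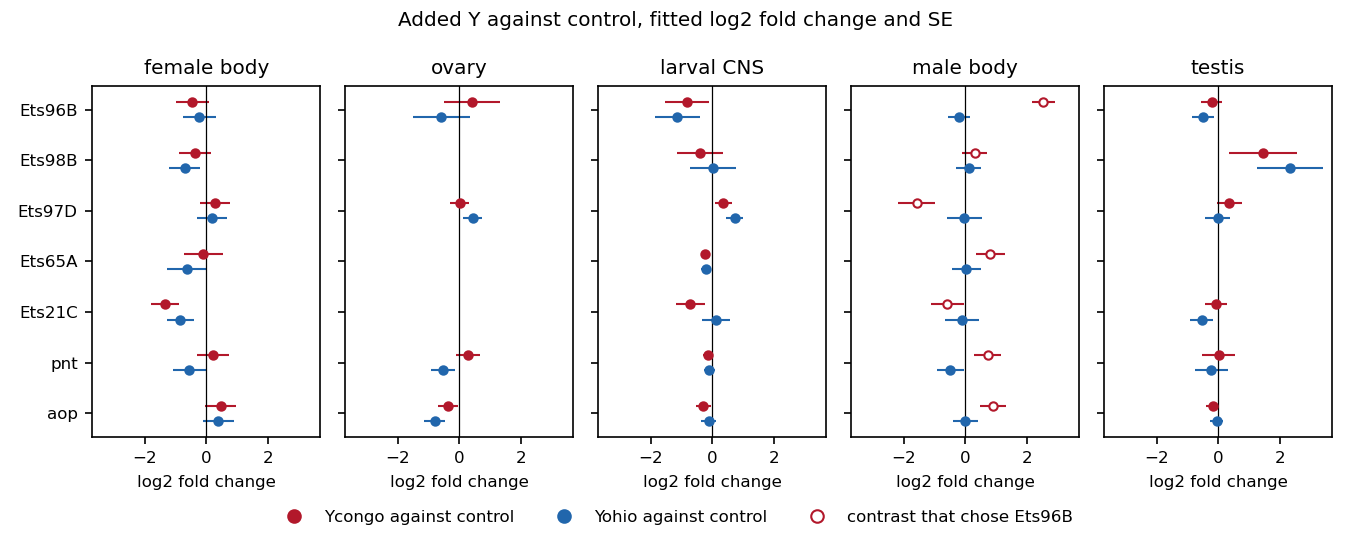
Fitted log2 fold change (points) and SE (lines) of each ETS gene for an added Ycongo or Yohio against the control, by tissue; members left out by the low-count filter have no point. Ets96B in XYYcongo male bodies is at 2.54 (open point, the contrast that chose it), and the filled points of the 9 other contrasts run from -1.33 to 2.34, the highest being Ets98B in XYYohio testes, with an SE of 1.08 and 7 and 0 counts in its XY controls.

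Between the 2 added Y chromosomes, 30 tests of members were made over 5 tissues and edgeR called 0, with 2 at an unadjusted p under 0.05; DESeq2 called 0 as well. Over all genes, edgeR called 0.0% in female bodies, male bodies and testes, 0.0302% in the CNS and 0.0113% in ovaries. Both of the 2 stood in male bodies, in libraries that also chose Ets96B: XYYcongo against XYYohio gave a log2 fold change of 1.2 ± 0.44 (SE) for pnt and -1.56 ± 0.61 for Ets97D, each with an adjusted p of 0.693 by edgeR. In ovaries pnt had 23.7 and 61.6 CPM with XXYcongo, against 19.0 and 28.3 CPM with XXYohio, groups that overlapped. Without replicate 1 of the XXYcongo ovaries, pnt passed the test in that contrast, with a log2 fold change of 1.26 and an adjusted p of 0.0453 by edgeR, the 1 member call that leaving out a library added in the contrasts of added Y chromosomes. XXYcongo is then a single library that is assumed to vary like the other groups, and of 9209 genes tested 95 were called as higher and 102 as lower there, against 0 and 1 of 8829 with all libraries.

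From the authors' deposited tables for the 10 added Y contrasts, an adjusted p was read for 44 of the 70 pairs of an ETS gene and a contrast. None of the 44 was under 0.05, and the lowest was 0.229, for aop in XXYohio ovaries with a log2 fold change of -0.64 in the authors' deposited table. Ets96B in XYYcongo male bodies was left out of the 44, because that contrast chose the gene, and its adjusted p was not read. The 44 still include Ets98B, pnt and aop in that contrast, and nothing is read from those values. No member had an adjusted p to read in XYYohio male bodies.

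The tissues differed far more than the genotypes did. Per kb of exon, aop had the highest median level of the 7 genes in female bodies (47.3 CPM per kb), male bodies (24.4) and ovaries (40.2), while Ets96B had the highest in testes (12.5) and Ets65A in the CNS (15.5). Also per kb, the lowest median in ovaries and testes was that of Ets65A, at 0 in both. In male bodies Ets98B followed aop with 19.4 CPM per kb, and in ovaries Ets97D followed it with 11.1 CPM per kb. Eip74EF, an ecdysone-induced ETS gene that was not among the 7, had medians of 1.2 CPM per kb in testes and 14.9 CPM per kb in the CNS.

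Within a tissue some members stayed in a narrow range over all 6 libraries. In testes aop ran from 28.8 to 34.9 CPM, and in the CNS pnt ran from 36.8 to 48.0 CPM. In ovaries Ets97D ran from 16.2 to 26.0 CPM. Others were wide: pnt ran from 19.0 to 61.6 CPM in ovaries and from 23.6 to 73.1 CPM in female bodies, where aop ran from 123 to 305 CPM. These spreads lay within as well as between genotypes, since pnt had 65.7 and 27.4 CPM in the 2 XX female bodies.

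In the same annotation, pnt lies on 3R from 23290231 to 23346167, Ets97D on 3R from 26910775 to 26912886 and Ets98B on 3R from 27736538 to 27748366. Ets65A lies on 3L from 6097617 to 6123913, Ets21C on 2L from 544925 to 552923 and aop on 2L from 2156484 to 2178754. No member is on the Y chromosome.

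**Figure D4:**
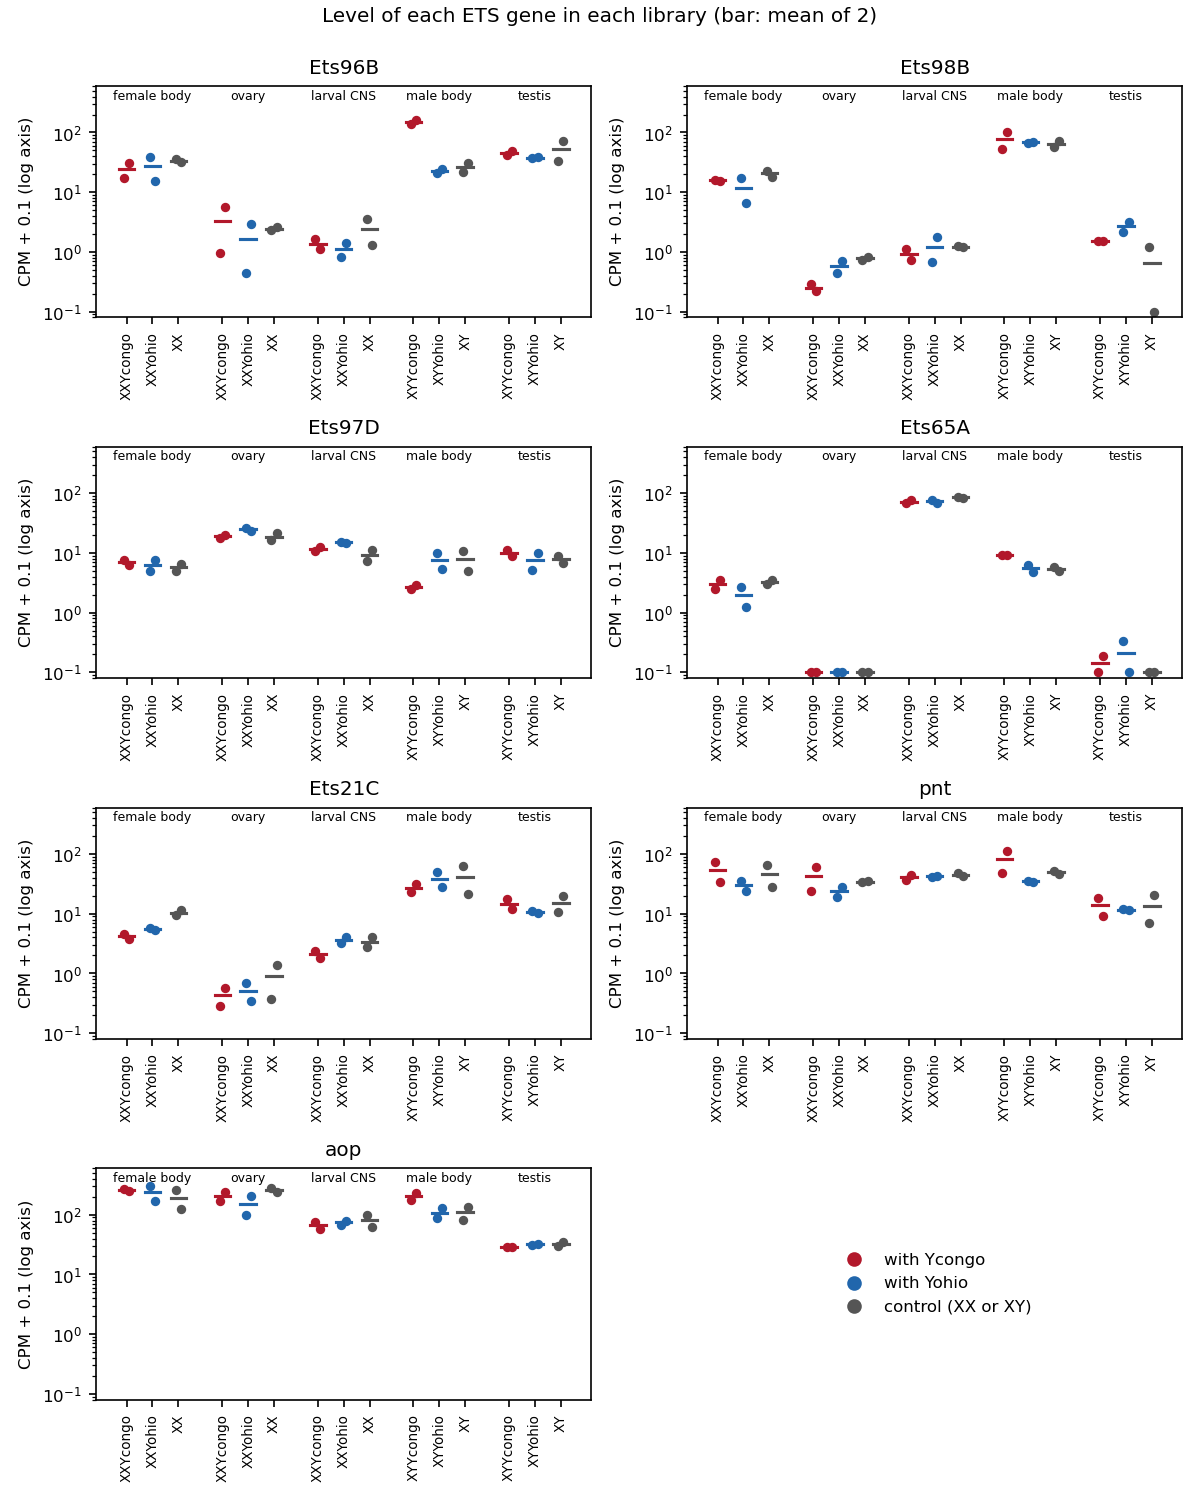
Level of each of the 7 ETS genes in each library, as CPM + 0.1 on a log axis, with the mean of 2 libraries (bars), by tissue and genotype. Ets65A lies between 67.8 and 87.3 CPM in the CNS and at 0 in ovaries, and Ets98B is highest in male bodies.

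Control groups of different tissues were compared in 1 fit of all 30 libraries with edgeR's quasi-likelihood test, adjusted over 14384 genes. In XX ovaries against XX female bodies, 1 member was higher and 4 were lower, where 39.9% of all genes were called, 17.8% as higher and 22.1% as lower. Ets97D had 16.2 and 21.3 CPM in ovaries, against 4.97 and 6.48 CPM in female bodies. It was the member that rose, with a log2 fold change of 1.71 ± 0.42 (SE) and an adjusted p of 0.00286 by edgeR, which became 1.24 and 0.0696 when the fit held the 4 libraries alone. Ets98B had 0.638 and 0.737 CPM in ovaries, against 22.8 and 18.2 CPM in female bodies, and fell with a log2 fold change of -4.87 ± 0.68 (SE) and an adjusted p of 8.89e-06 by edgeR. Ets96B fell with a log2 fold change of -3.82 ± 0.75 (SE) and an adjusted p of 0.000397 by edgeR. Ets21C had 0.273 and 1.31 CPM in ovaries, against 9.31 and 11.4 CPM in female bodies, and fell with a log2 fold change of -3.66 ± 0.62 (SE) and an adjusted p of 8.48e-05 by edgeR. Ets65A had 0 counts in all 6 ovary libraries, whatever the genotype, against 2.9 and 3.4 CPM in XX female bodies. With 3 counts in each library as the limit, it was at least 12.1-fold lower in XX ovaries than in XX female bodies. The falls of these 4 genes passed the test in all 7 settings of scaling, filter, tool and samples. The size of the Ets21C difference rested on single ovary libraries, at -2.97 without ovary replicate 1 and -5.18 without ovary replicate 2. pnt (33.5 and 35.4 CPM in ovaries, against 65.7 and 27.4 CPM in female bodies) and aop (275 and 244 CPM, against 262 and 123 CPM) did not pass.

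In the XX CNS against XX female bodies, 1 member was higher and 4 were lower, where 45.3% of all genes were called, 22.5% as higher and 22.8% as lower. Larval CNS and adult body differ in stage as well as tissue, and the parts of the 2 cannot be told apart. Ets65A had 87.3 and 84.0 CPM in the CNS, against 2.9 and 3.4 CPM in female bodies, a 27.2-fold difference of means that was a log2 fold change of 4.76 ± 0.48 (SE) with an adjusted p of 5.85e-07 by edgeR. With an added Y it had 67.8 and 75.7 CPM in XXYcongo CNS and 76.9 and 69.3 CPM in XXYohio CNS, both below the 2 XX libraries, with log2 fold changes of -0.23 ± 0.15 and -0.21 ± 0.15 (SE) that did not pass the test (adjusted p = 0.856 and 0.862 by edgeR). Ets96B, at 3.41 and 1.2 CPM in the CNS, fell with a log2 fold change of -3.86 ± 0.75 (SE) and an adjusted p of 0.000262 by edgeR. Ets98B, at 1.14 and 1.12 CPM in the CNS, fell with a log2 fold change of -4.17 ± 0.64 (SE) and an adjusted p of 2.19e-05 by edgeR. aop had 100 and 63.0 CPM in the CNS and fell with a log2 fold change of -1.24 ± 0.4 (SE), and Ets21C had 2.63 and 4.0 CPM there and fell with a log2 fold change of -1.64 ± 0.54 (SE), at adjusted p-values of 0.015 and 0.0179 by edgeR. The Ets96B value was -4.79 without XX CNS replicate 1, and -3.29 without replicate 2. The call of aop was lost without XX female body replicate 1 (-0.59) or XX CNS replicate 2 (-0.95). The call of Ets21C was lost without XX CNS replicate 1 (-1.37) or XX female body replicate 2 (-1.49). With the Yohio groups in place of the controls, Ets21C was at -0.61 with an adjusted p of 0.393 by edgeR.

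The genes most like Ets65A over the 15 groups were slp2, a forkhead transcription factor (r = 0.997), CG9368 (0.996) and Ilp2, an insulin-like peptide of brain neurosecretory cells (0.993). In the XX CNS slp2 had 57.6 to 70.9 CPM and Ilp2 117 to 156 CPM, and both had 0 CPM in XX ovaries and XY testes. These correlations are over 15 groups of which only the 3 CNS groups are high.

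In XY testes against XY male bodies, 5 members were lower and 0 higher, where 50.0% of all genes were called, 28.4% as lower and 21.5% as higher. Ets98B had 7 and 0 counts in XY testes (1.13 and 0 CPM), against 56.3 and 71.4 CPM in male bodies, a log2 fold change of -6.99 ± 0.77 (SE) with an adjusted p of 9.15e-07 by edgeR. Without testis replicate 1 the remaining XY testis library held 0 counts, so the fitted value there (-12.39) is no measure of size; without testis replicate 2 it was -5.81, and the call held both times. Ets65A had 0 counts in both XY testis libraries, against 5.69 and 4.95 CPM in male bodies, at least 13.0-fold lower. aop had 30.3 and 34.9 CPM in testes, against 81.8 and 137 CPM in male bodies, and fell with a log2 fold change of -1.75 ± 0.41 (SE) and an adjusted p of 0.00177 by edgeR. pnt had 6.76 and 20.1 CPM in testes, against 51.8 and 46.8 CPM in male bodies, and fell with a log2 fold change of -1.86 ± 0.55 (SE) and an adjusted p of 0.00881 by edgeR. Ets21C had 10.5 and 20.0 CPM in testes, against 61.8 and 21.0 CPM in male bodies, and fell with a log2 fold change of -1.43 ± 0.53 (SE) and an adjusted p of 0.0289 by edgeR, but its call was lost with RLE scaling, no filter, DESeq2 or without male body replicate 1, where the log2 fold change was -0.46. Without mitochondrial genes in the library sizes, aop, pnt and Ets21C did not pass (adjusted p = 0.0515, 0.104 and 0.334 by edgeR), and without testis replicate 1 neither pnt nor Ets21C did (0.115 and 0.208). The pnt value was -2.86 without testis replicate 2. Ets96B had 33.3 and 71.4 CPM in testes, against 21.6 and 31.1 CPM in male bodies. Its log2 fold change was 0.99 with an adjusted p of 0.213 by edgeR. Without mitochondrial genes Ets96B passed as higher, at 1.86 with an adjusted p of 0.0199 by edgeR. The XY male bodies are the reference of the contrast that chose Ets96B, so nothing is read from that call. With Yohio groups in place of the controls, Ets96B was at 0.72 with an adjusted p of 0.363 by edgeR. The median of all genes was -0.01 in XY testes against XY male bodies, 0.40 with RLE scaling and 0.81 without mitochondrial genes. Each log2 fold change shifts with it. The balance of calls over all genes shifted too, to 5916 higher and 2629 lower without mitochondrial genes, against 3098 higher and 4092 lower with them.

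In XY testes against XX ovaries, 2 members were higher and 3 were lower, where 66.0% of all genes were called, 43.0% as higher and 23.0% as lower. Ets96B was at 33.3 and 71.4 CPM in testes, against 2.19 and 2.54 CPM in ovaries, with a log2 fold change of 4.46 ± 0.77 (SE) and an adjusted p of 3.24e-05 by edgeR. Ets21C was at 10.5 and 20.0 CPM in testes, against 0.273 and 1.31 CPM in ovaries, with a log2 fold change of 4.23 ± 0.63 (SE) and an adjusted p of 5.41e-06 by edgeR. aop was at 30.3 and 34.9 CPM in testes, against 275 and 244 CPM in ovaries, with a log2 fold change of -2.99 ± 0.43 (SE) and an adjusted p of 2.98e-06 by edgeR. These 3 calls held in all 7 settings. The Ets21C value was 3.53 without ovary replicate 1 and 5.74 without ovary replicate 2, and the Ets96B value was 3.81 without testis replicate 2. Ets97D fell with a log2 fold change of -1.28 and pnt with -1.35 (adjusted p = 0.0107 and 0.0342 by edgeR), and neither call held with RLE scaling (adjusted p = 0.0844 and 0.128 by edgeR) or without ovary replicate 2 (0.0714 and 0.0903). The median of all genes was 0.74 in this contrast and 1.20 with RLE scaling. Ets97D was also lost without testis replicate 2 (0.0936 by edgeR), and pnt without ovary replicate 1 (0.073) or testis replicate 1 (0.295). The pnt value was -2.35 without testis replicate 2. Ets98B, not called here, passed as higher with the Yohio groups in place of the controls (2.38, adjusted p = 0.00461 by edgeR). Ets65A was at 0 in both groups.

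In XY male bodies against XX female bodies, 2 members were higher and 0 lower, where 48.0% of all genes were called, 41.2% as higher and 6.82% as lower. Ets21C had 61.8 and 21.0 CPM in male bodies, against 9.31 and 11.4 CPM in female bodies, a log2 fold change of 2.0 ± 0.53 (SE) with an adjusted p of 0.00404 by edgeR. Ets98B had 56.3 and 71.4 CPM in male bodies, against 22.8 and 18.2 CPM in female bodies, a log2 fold change of 1.64 ± 0.55 (SE) with an adjusted p of 0.0177 by edgeR. The median of all genes was 0.99 in this contrast, 0.62 with RLE scaling and 0.12 without mitochondrial genes, and each value includes that shift. Without mitochondrial genes neither gene passed, at 1.14 for Ets21C and 0.75 for Ets98B (adjusted p = 0.0938 and 0.287 by edgeR), and aop did, as lower (-1.7, adjusted p = 0.00107). With TMM scaling and all 30 libraries aop did not pass (-0.81, adjusted p = 0.0957 by edgeR), but it passed as lower in each of the 6 alternatives of scaling, filter, tool and samples, down to -1.7. Ets21C passed in 4 and Ets98B in 3 of the 7 settings. Ets21C was also lost without male body replicate 1 (1.02), and Ets98B without female body replicate 1 (1.81) or replicate 2 (1.48) or male body replicate 2 (1.45).

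**Figure D5:**
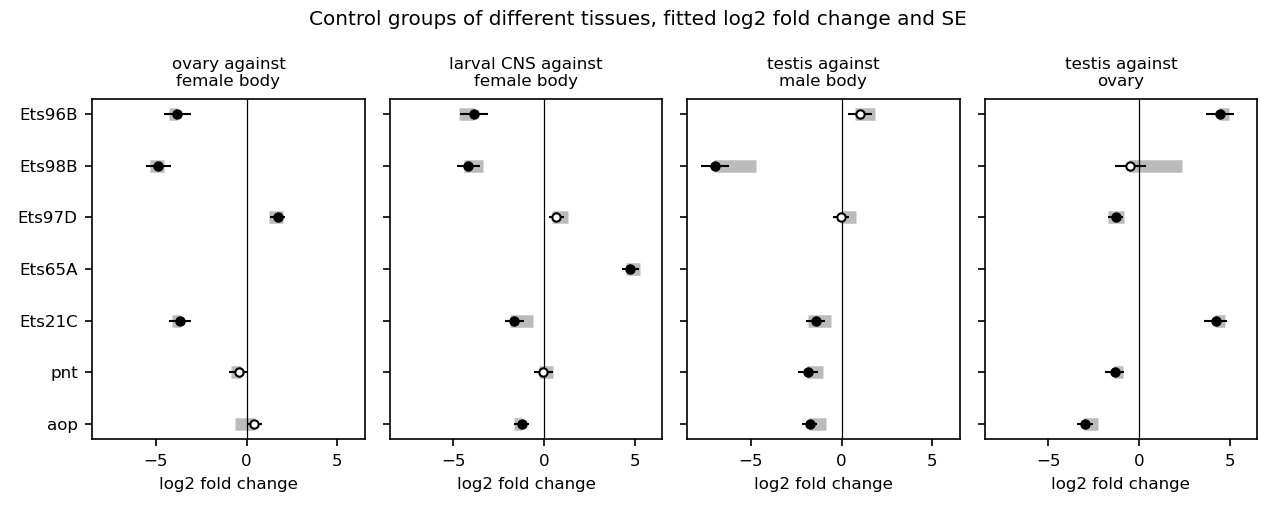
Fitted log2 fold change (points) and SE (lines) of the ETS genes between control groups of different tissues, with the range over 7 settings as grey bars; filled points have an adjusted p below 0.05, and Ets65A is drawn only for the CNS because ovaries and testes had 0 counts. Ets96B, Ets98B and Ets21C are lower in ovaries than in female bodies, and Ets65A is higher in the CNS.

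Exon overlaps also touch 3 other members. Ets21C shares 1532 bases, 28.33% of its exon length, with nAChRbeta3, a nicotinic acetylcholine receptor subunit on the opposite strand, and the correlation of the 2 over the 15 group means of log2(CPM + 1) was 0.97. nAChRbeta3 had 46.3 and 16.8 CPM in XY male bodies, against 7.17 and 10.2 CPM in XX female bodies, so the direction given for Ets21C was also that of its overlapping neighbour and the reads cannot be told apart. Ets97D shares 223 bases with T48 (correlation 0.39) and aop 307 bases with CG15382 (0.63). Ets98B, Ets65A and pnt have no exon in common with another gene.

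Members did not move as 1 family. Over the 15 group means of log2 CPM, Ets96B was most like Ets21C (r = 0.81) and least like Ets97D (r = -0.845). The correlation of pnt and aop was 0.72. All are descriptions over groups that share tissues and include the XYYcongo male bodies that chose Ets96B. Outside the family, aspr was most like Ets98B (r = 0.985), CG5339 most like Ets97D (0.955), Bbd most like Ets21C (0.988), CG3638 most like pnt (0.963) and Mgat4a most like aop (0.985), each among 14384 genes over 15 groups.

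Receptor tyrosine kinase, Ras, JNK and JAK-STAT genes were looked up as 6 lists of 58 genes. Of these, 54 were found by symbol. In the 9 added Y contrasts with a test, edgeR called 0 in 464 tests, with 20 at an unadjusted p under 0.05, and DESeq2 called 1. That gene was stet, a rhomboid protease that releases EGF receptor ligands in the germline, in XXYcongo ovaries (log2 fold change -1.24 with an adjusted p of 0.00944 by DESeq2, and -1.23 with 0.154 by edgeR). Between the added Y chromosomes 0 of 258 tests were called by edgeR and 0 by DESeq2, with 12 at an unadjusted p under 0.05.

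Between tissues many of these genes differed, as did many of all genes. In testes against male bodies 0 of 54 were higher and 26 lower, where 21.5% of all genes were higher and 28.4% lower, with a median log2 fold change of -1.06, against -0.01 over all genes, and with RLE scaling 0 and 18, without mitochondrial genes 8 and 12. Among those called in each of 5 settings were Egfr, the EGF receptor, at 38 ± 5.28 CPM in testes, against 235 ± 68.6 CPM in male bodies (SD, n = 2 each), and Mkp3, a phosphatase that inactivates ERK, at 5.76 ± 0.73 CPM, against 45.5 ± 1.47 CPM. kay, the fly Fos and partner of JNK signalling, was at 58.9 ± 17.7 CPM in testes, against 403 ± 155 CPM in male bodies. In ovaries against female bodies 12 were higher and 15 lower, where 17.8% of all genes were higher and 22.1% lower, with a median of 0.2, against 0.0 over all genes, and with RLE scaling 4 and 17. The receptor gene Alk was at 0.346 ± 0.026 CPM in ovaries, against 54.8 ± 6.9 CPM in female bodies, and stet was at 182 ± 12.7 CPM, against 43.7 ± 18.4 CPM. In the CNS against female bodies 16 were higher and 13 lower, where 22.5% of all genes were higher and 22.8% lower, with a median of -0.06, against 0.0 over all genes, and with RLE scaling 13 and 14. There edl, which binds both aop and pnt, was at 26.6 ± 1.11 CPM in the CNS, against 8.8 ± 2.11 CPM in female bodies, and aos, a secreted inhibitor of the EGF receptor, at 35.4 ± 7.58 CPM, against 12.2 ± 2.98 CPM. In testes against ovaries 13 were higher and 20 lower, where 43.0% of all genes were higher and 23.0% lower, with a median of -0.43, against 0.74 over all genes, and with RLE scaling 16 and 18. Of the 10 measured genes of the Ras-MAPK list 6 were lower there and 0 higher by edgeR. The 6 include lic, a kinase of the p38 pathway rather than of the Ras cascade. The kinase Raf, also among them, was at 20.8 ± 4.18 CPM in testes, against 87.6 ± 25.5 CPM in ovaries. In male against female bodies 13 were higher and 6 lower, where 41.2% of all genes were higher and 6.82% lower, with a median of 0.65, against 0.99 over all genes, with RLE scaling 8 and 10, and without mitochondrial genes 2 and 16. Pvr, the PDGF and VEGF receptor relative, was at 134 ± 20.9 CPM in male bodies, against 37.6 ± 0.124 CPM in female bodies, and was called in each of the 5 settings.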

How the data were processed

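Poly(A) RNA of 30 libraries was analysed. The authors deposited raw read counts per gene without normalization, per the file headers 1 column per library, and tables of log2 fold changes with a p-value and adjusted p-value per gene; the submitters' processing notes name Trim Galore, Bowtie2, SAMtools, DESeq2 1.8.1 and R 3.2.3. Genome build, annotation and strand setting: not given in the sources used here. Genes on opposite strands may therefore share reads. File names with Cs were read as Yohio, since the labels call those libraries Yohio. From the authors' tables only log2 fold changes and adjusted p-values are quoted, and the tables that combine comparisons were not used.

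Of 16868 gene IDs, 16649 had a symbol in Ensembl BDGP6.54 release 115, which also gave positions. The counts went into edgeR 4.0.16 under R 4.3.3, with filterByExpr with a minimum count of 10, TMM scaling, quasi-likelihood tests and Benjamini-Hochberg adjustment over all genes fitted, in 5 fits of 6 libraries (3 residual degrees of freedom) for the genotypes and 1 fit of 30 libraries for control tissues. Calls are adjusted p below 0.05. Scripts were tested on simulated data. Levels are CPM on 1 TMM scale; correlations use log2 CPM with a prior count of 2. A count of 0 allows up to 3 counts, which covers counting error only. With 2 libraries per group the precision is low, and libraries with the same replicate number were not paired in the main fits (see the limits). Alternatives were RLE scaling, no filter, DESeq2 1.42.0, the 4 libraries of a contrast alone, mitochondrial genes left out, a replicate block, each library left out, and Yohio groups in place of controls.

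The members, lists and tests were chosen with earlier results of these data known. Named genes are the 7 members in all groups, Eip74EF, the 3 genes most like each member (5 for Ets96B), and up to 4 called genes of each list and contrast; the overlapping and neighbouring genes and those at unadjusted p under 0.05 were chosen after their values were seen.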

Additional observations from a re-analysis of the deposited data

Results flagged for a closer look

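Ets98B lay on opposite sides of its control in different tissues with an added Y, each time with no overlap between the 2 groups of a tissue. Such pairs were searched for over all members and tissues, so nothing is read from the lack of overlap. The share of all genes without overlap was not counted in these contrasts. In a different contrast, XYYcongo against XY male bodies, 16.0% of all fitted genes were higher and 20.5% lower without overlap. With Yohio it was higher in XYYohio testes (2.08 and 3.09 CPM, against 1.13 and 0 CPM in XY) and lower in XXYohio female bodies (17.1 and 6.52 CPM, against 22.8 and 18.2 CPM in XX), and the log2 fold changes differed by 3.04. With Ycongo it was higher in XYYcongo testes (1.41 and 1.41 CPM, against 1.13 and 0 CPM in XY) and lower in XXYcongo CNS (1.04 and 0.639 CPM, against 1.14 and 1.12 CPM in XX), a difference of 1.86, and in XXYcongo female bodies (15.9 and 15.5 CPM, against 22.8 and 18.2 CPM in XX), a difference of 1.82. These differences were not tested, and no single contrast among them passed edgeR's test. The XY testes rest on 7 and 0 counts, so the fitted values depend on the prior count. The CNS values rest on 12 and 7 counts in XXYcongo, against 13 and 14 in XX.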

How the results depend on the processing

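The log2 fold change of Ets96B in XYYcongo male bodies was 2.54, lay between 2.3 and 2.83 when each male body library was left out, and between 2.53 and 2.56 under the other alternatives. Among the tissue contrasts, Ets21C and Ets98B, the 2 members called in male against female bodies, were both lost with the 4 libraries alone, with no filter and without mitochondrial genes, where the count was 1, aop as lower. With Yohio groups 4 were called (Ets21C, Ets98B and Ets65A as higher, aop as lower), with RLE scaling Ets21C and aop, and with libraries left out 1 to 2, aop among them without female body replicate 2. The 5 lower in testes against male bodies became 2, Ets98B and Ets65A, without mitochondrial genes, where Ets96B as higher brought the count to 3, and 3 to 5 with libraries left out. Nothing is read from that Ets96B call, since the XY male bodies helped choose the gene. The 5 in testes against ovaries became 3 (Ets96B, Ets21C and aop) with DESeq2 and with RLE scaling and 3 to 5 with libraries left out. The 0 in XXYcongo against XXYohio ovaries became 0 to 1 with libraries left out; the other added Y contrasts kept 0. Over 22 log2 fold changes of called members and their alternatives, 337 values kept direction and side of the threshold, 37 lost the call and none changed direction. In the tissue fit only the 10 control libraries were left out in turn. A contrast compares 2 groups, so most of these libraries lie outside it, and values without them had little room to change. Many of the 337 are such values.

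With replicate number as a block, the count of members called stayed at 5 in the other tissue contrasts, at 2 in male against female bodies and at 0 in each added Y contrast tested, and Ets96B in XYYcongo male bodies was at 2.55. Deviations of libraries with the same number correlated from -0.437, in XY and XYYcongo testes, to 0.554, in XY and XYYohio male bodies. In female bodies XX correlated at 0.517 with XXYohio and 0.448 with XXYcongo, and XXYohio with XXYcongo at -0.109. Whether libraries with the same number share a batch in some tissues cannot be told from these values. With 2 libraries a group and 3 residual degrees of freedom, moderate changes of single genes can be missed.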
